A study of Rattus norvegicus with 36 samples.

Results

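The comparison described here sets rat mammary cancers that arose after gamma radiation and MNU, and that carried no H-ras mutation, against cancers that arose after the same radiation alone. MNU (N-methyl-N-nitrosourea) is an alkylating carcinogen, and H-ras is an oncogene often found mutated in rat mammary cancers after MNU. The cancers were chosen by their labels: 8 of the 36 arrays in the series, 4 of each group. All genes with a usable probe set were compared, 11773 in number.

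The radiation plus MNU cancers came from female Sprague-Dawley rats that received 1 Gy of whole-body gamma rays from a caesium source at 7 weeks of age and, 3 days later, 40 mg/kg MNU into the peritoneum. The radiation cancers came from female Sprague-Dawley rats given the 1 Gy alone. Both groups are labelled as nonmutated in H-ras, and all rats were switched to a diet with 23.5% corn oil when 9 weeks old. A further 4 nonmutated cancers after MNU (40 mg/kg at 7 weeks of age) without radiation were used to place the values. So were 3 spontaneous cancers and 3 normal mammary tissues of untreated rats. The remaining arrays entered only the estimate of the spread. Neither the rat behind each cancer nor its age at sampling is given in the labels, so 2 cancers of a group may share a rat. What the p-values weigh is the spread among these arrays, part of which may be technical.

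MNU transfers a methyl group to DNA bases. Its product O6-methylguanine mispairs during replication unless the methyltransferase encoded by Mgmt removes the methyl group, and mismatch repair acts on the mispairs that remain. Gamma rays act mainly by breaking DNA strands, which are rejoined by end joining or homologous recombination. A cancer sampled long after both exposures shows the expression state of the tumour that grew out, with its stroma and blood cells, and not the acute response. In whole tissue, fewer cells of a type and less RNA per cell cannot be told apart.

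Array values are log2(intensity + 42.8), the constant being the 20th percentile of all intensities, and a difference on this scale understates the change of dim genes. The median intensity of the 8 arrays lay between 193 and 212, and the 3'/5' ratio of the hexokinase control probes, a sign of RNA integrity, between 2.08 and 2.76. The correlation over genes had a median of 0.944 within the radiation plus MNU group, 0.939 within the radiation group and 0.938 between the groups, so arrays of different groups were about as alike as arrays of 1 group. The luminal epithelial list, which holds the keratins Krt8 and Krt18 and the adhesion molecule Epcam, had array means of 11.34 to 11.78 after radiation plus MNU and 11.37 to 11.65 after radiation, against a mean of 11.16 in normal tissue. The adipocyte list averaged 8.10 and 7.86 in these cancers, against 11.40 in normal mammary tissue. Both groups thus expressed luminal epithelial genes and had low levels of fat-cell genes. The third normal array had a luminal list mean of 11.37, within the range of both groups. This list does not by itself tell a carcinoma from normal tissue. No probe set carried the symbol of H-ras itself in the annotation used, so it was not analysed here.

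No gene passed the test between radiation plus MNU and radiation cancers: 0 of 11773 genes (0%) had an adjusted p under 0.05 in limma, with p-values adjusted by the Benjamini-Hochberg method. The smallest adjusted p was 0.267, shared by P2rx4 and Uqcc6. At an unadjusted p under 0.05 there were 972 genes (8.26%), 363 with higher values after radiation plus MNU (3.08%) and 609 with lower values (5.17%). The groups did not overlap for 507 genes (4.31%), 173 higher (1.47%) and 334 lower (2.84%). The median difference over all genes was -0.03, and 44% of genes had a positive difference.

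The size of the groups limited what could be seen, yet large differences on the scale used were bounded for most genes. For dim genes that scale understates the change, so the bound does not limit their fold change. The 95% interval of the difference lay within 1 log2 unit of 0 for 10215 genes (86.8%), and the median standard error was 0.179. In data simulated with the spread of these arrays, 100 genes were changed by 1 log2 unit and 100 by 2 units. The same test recovered 74% and 97% of them. The noise was normal, of 1 spread per gene in all groups and independent between genes, unlike that of Fgf3 or Igfals below. So many changed genes ease the adjustment, so these shares do not give the chance of finding a few changed genes here. A difference of at least 1 log2 unit was seen for 61 genes with higher values and 41 with lower values after radiation plus MNU.

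**Figure D1:**
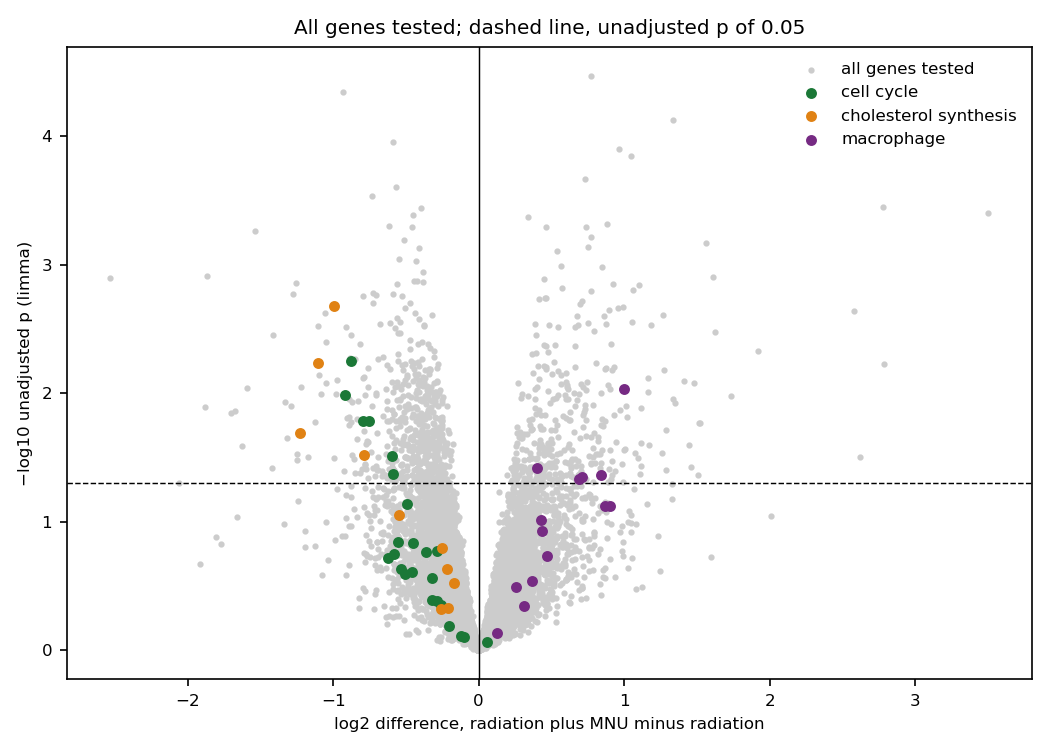
The log2 difference between radiation plus MNU and radiation cancers (horizontal axis) is plotted against -log10 of the unadjusted limma p (vertical axis) for 11773 genes, with 3 gene lists in colour. Members of the cell cycle and cholesterol synthesis lists lie mostly left of 0 and the 14 macrophage genes all lie right of it, and no gene passes after adjustment.

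The genes described next were named by rank of their unadjusted p, 15 in each direction, and none of them passed after adjustment. Of the 15 with higher values after radiation plus MNU, 13 did not overlap between the groups, Letm2 and Fgf3 being the exceptions. All 15 with lower values did not overlap, but a gene with such a small p is nearly bound to be apart, so these counts describe the choice.

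P2rx4 encodes an ATP-gated ion channel of the plasma membrane and lysosomes. Its values were 11.08, 11.03, 10.68 and 11.01 after radiation plus MNU, against 10.31, 10.12, 10.35 and 9.95 after radiation. Every radiation plus MNU array lay above every radiation array, and the difference was 0.77 ± 0.16 (SE; limma adjusted p = 0.267). Ptges, the microsomal prostaglandin E synthase, had 10.05, 10.55, 10.37 and 10.35 after radiation plus MNU, against 9.89, 9.24, 8.23 and 8.60 after radiation. The radiation arrays were the scattered ones, the first of them close to the other group. The difference was 1.34 ± 0.29 (limma adjusted p = 0.279), and without the first radiation array it was 1.64 and passed (limma adjusted p = 0.0369).

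Pnpla2, the triglyceride lipase that starts the breakdown of stored fat, had 11.35, 10.88, 10.88 and 11.59 after radiation plus MNU and 9.99, 10.47, 10.28 and 10.10 after radiation. It was higher by 0.96 ± 0.22 (limma adjusted p = 0.279), without overlap. Hsdl2, a peroxisomal protein of the dehydrogenase family, was higher by 0.73 ± 0.17, its radiation plus MNU arrays at 11.00 to 11.44 and its radiation arrays at 10.29 to 10.74. Slc48a1, a heme transporter, was higher by 0.54 ± 0.14, and Dpagt1, the enzyme of the first step in N-glycan assembly, by 0.34 ± 0.09. Slc48a1 and Dpagt1 did not overlap between the groups despite these small differences, as the choice by small p makes likely. The radiation arrays of Slc48a1 had an SD of 0.35, and its difference was 0.38 without the fourth of them.

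Ccl6, a chemokine of rodents made mainly by myeloid cells, had 10.01, 11.17, 9.32 and 10.98 after radiation plus MNU, against 6.58, 8.30, 7.24 and 8.24 after radiation. The lowest radiation plus MNU array stood about 1 log2 unit above the highest radiation array, and the difference was 2.78 ± 0.69 (limma adjusted p = 0.315). Normal mammary tissue had 11.56, 10.18 and 10.12. Mamdc2, which encodes a secreted protein with MAM domains, had 7.46, 7.40, 6.91 and 9.08 after radiation plus MNU and 5.57, 6.23, 6.50 and 6.29 after radiation, where every array was below the intensity of 126 that the filter asks for. Its difference of 1.56 ± 0.41 was 1.11 without the fourth radiation plus MNU array.

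Fgf3 encodes a fibroblast growth factor, an oncogene in mouse mammary tumours, where insertion of a tumour virus switches it on. Its values were 10.11, 5.58, 11.31 and 9.88 after radiation plus MNU, against 5.67, 5.55, 5.67 and 5.98 after radiation. Of the 4 radiation plus MNU cancers, 3 were high and 1 was at the floor, while all 4 radiation cancers were at the floor. As intensities, the radiation plus MNU arrays read 1062, 5.08, 2493 and 898, and the radiation arrays 8.16, 4.16, 8.09 and 20.3. The fitted difference of 3.50 ± 0.88 (limma adjusted p = 0.315) rests on the added constant, being 4.22 with a constant of 16 and 2.55 with the largest constant tried. Without the second radiation plus MNU array, the one at the floor, it was 4.71 and passed (limma adjusted p = 0.00935). High values occurred without either agent, in 2 of 3 spontaneous cancers (9.56, 5.52 and 9.77), whereas the 4 MNU cancers without radiation (5.58 to 5.67) and the normal tissues (5.55 to 5.75) were at the floor.

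The remaining genes on the higher side had limma adjusted p between 0.279 and 0.348. Letm2, a protein of the inner mitochondrial membrane, differed by 1.05 ± 0.24 and Frrs1, a ferric reductase, by 0.88 ± 0.23. The Letm2 difference depends on the constant, being 1.33 with 16 and 0.64 with the largest tried. Slx1b, a subunit of a nuclease that resolves branched DNA, differed by 0.77 ± 0.20. Ctla2a, a cathepsin inhibitor of rodents, differed by 0.75 ± 0.20, Gpd1l1, a glycerol-3-phosphate dehydrogenase, by 0.74 ± 0.19 and Tmem62 by 0.46 ± 0.12. Dpagt1 and Slx1b each had a second kept probe set with a smaller difference, 0.21 for Dpagt1 and 0.31 for Slx1b.

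On the lower side, Uqcc6, an assembly factor of respiratory chain complex III, had 8.42, 8.13, 8.50 and 8.34 after radiation plus MNU, against 9.24, 9.39, 9.15 and 9.35 after radiation. Both groups were tight and did not overlap, and the difference was -0.93 ± 0.19 (limma adjusted p = 0.267). Plxna2, a semaphorin receptor, had 7.58, 7.39, 7.40 and 7.72 after radiation plus MNU and 8.35, 8.18, 7.98 and 7.93 after radiation, a difference of -0.59 ± 0.13 (limma adjusted p = 0.279). The next genes, like the others here, were named by rank of p and not from a list. Srsf1, a splicing factor, was lower by 0.45 (SE 0.11). Cpsf3, the nuclease that cuts pre-mRNA at its 3' end, differed by -0.43 ± 0.12. Ubtf, a transcription factor of RNA polymerase I, differed by -0.46 ± 0.12, and Mrm2, which methylates mitochondrial ribosomal RNA, by -0.62 ± 0.16. Other kept probe sets gave -0.29 and -0.58 for Plxna2, -0.28 for Srsf1, and -0.01 and -0.65 for Ubtf.

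Khdrbs3, an RNA-binding regulator of splicing, had 8.74, 8.83, 9.45 and 8.48 after radiation plus MNU, against 9.81, 11.81, 10.35 and 9.68 after radiation. The second radiation array was the highest, and the difference of -1.54 ± 0.40 (limma adjusted p = 0.322) was -1.07 without it. Npw, the precursor of neuropeptide W, had 5.93, 5.56, 6.98 and 5.65 after radiation plus MNU and 8.17, 7.69, 7.83 and 7.89 after radiation. All 4 radiation plus MNU arrays were under the filter intensity, so the fitted -1.87 ± 0.52 (limma adjusted p = 0.401) again depends on the constant (-2.56 with 16 and -1.08 with the largest tried). Of the other lower genes, Tmem107, a protein at the base of the cilium, differed by -0.73 ± 0.18 and Pdf, the mitochondrial peptide deformylase, by -0.57 ± 0.14. Arc, an activity-regulated gene of neurons, differed by -0.55 ± 0.15, and Hyi, named for hydroxypyruvate isomerase, by -0.51 ± 0.13. Tubgcp2, a part of the complex that starts microtubules, differed by -0.41 ± 0.11. Swi5, a helper of recombination, differed by -0.39 ± 0.10 and the deubiquitinase Usp7 by -0.38 ± 0.11, where the other 2 Usp7 probe sets gave -0.12 and -0.09.

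**Figure D2:**
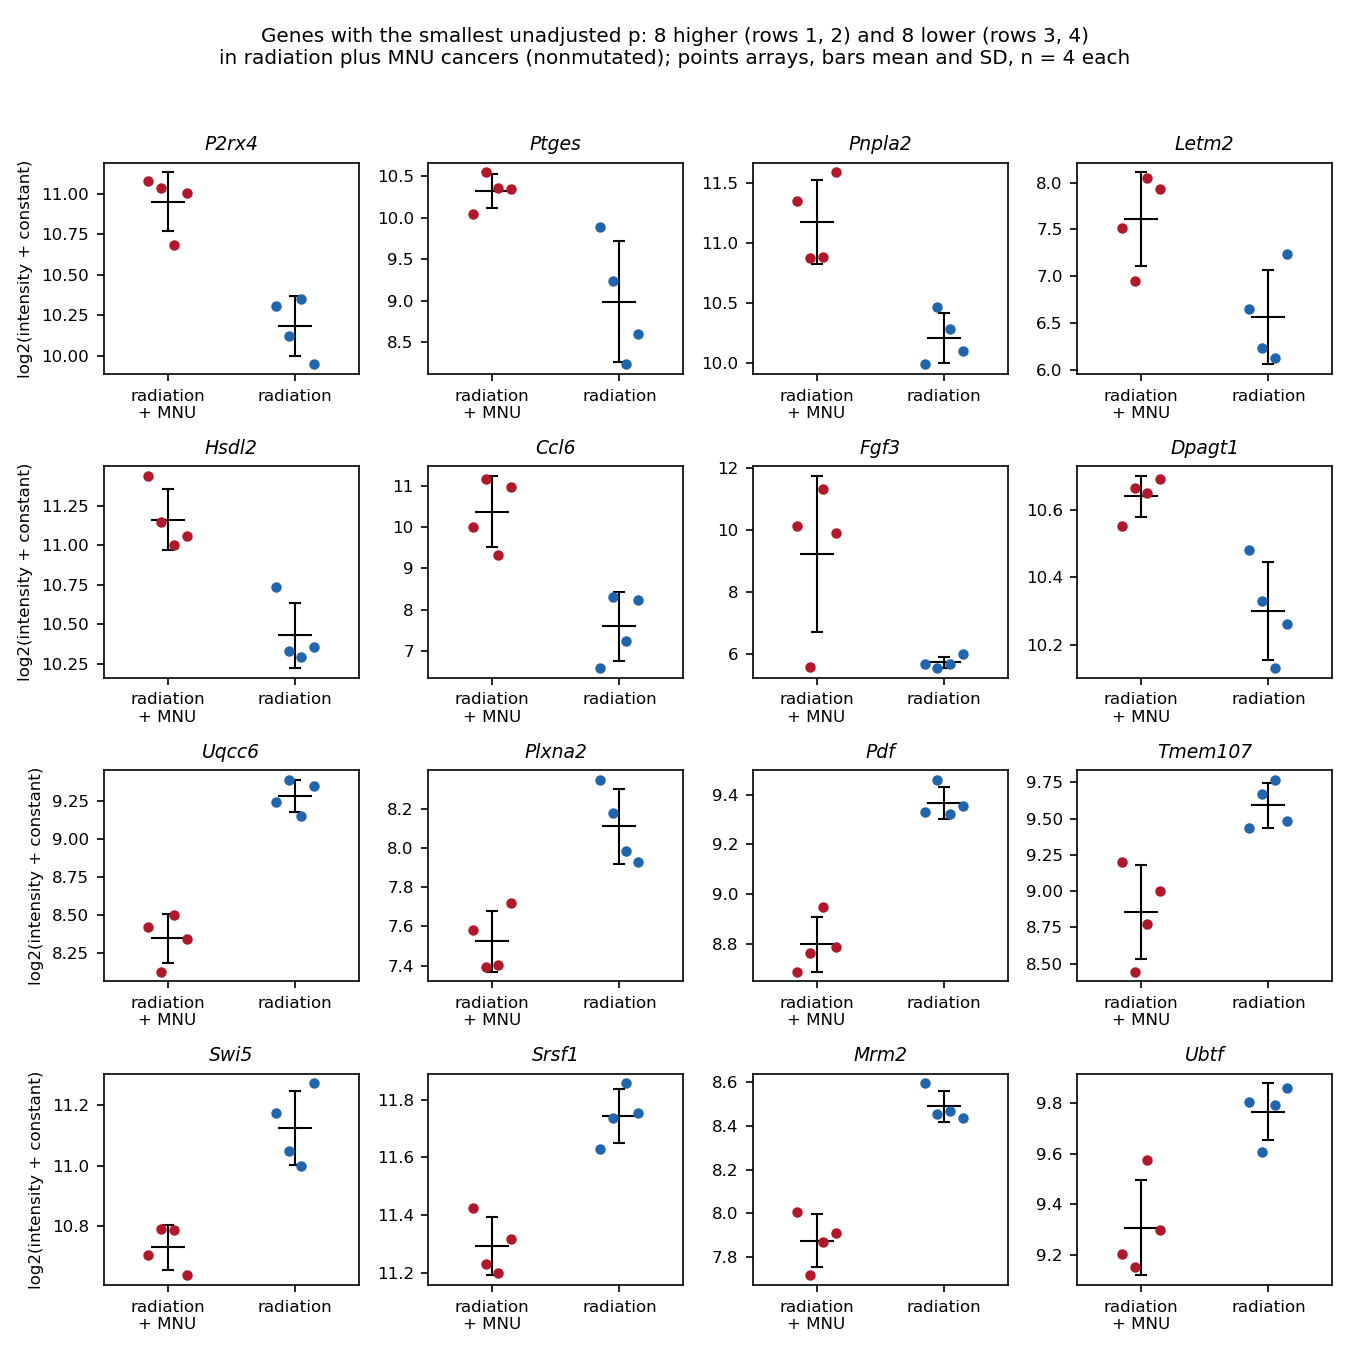
Array values, log2(intensity + 42.8), of the 8 genes with the smallest unadjusted p on the higher side and the 8 on the lower side, radiation plus MNU cancers in red and radiation cancers in blue, with mean and SD (n = 4 each). Only Letm2 and Fgf3 overlap between the groups, and each panel has its own axis, which does not start at 0.

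Sorting by size instead of p, which was decided after the values were seen, brings in genes with wider scatter. Pdk4, the kinase that shuts off pyruvate dehydrogenase, had 11.76, 10.17, 11.39 and 11.40 after radiation plus MNU, against 8.51, 8.63, 8.29 and 8.97 after radiation. The groups were more than 1 log2 unit apart at their nearest arrays, with a difference of 2.58 ± 0.77 (limma adjusted p = 0.409), and of 1.67 with the other Pdk4 probe set. Normal mammary tissue was higher still (12.87, 12.75 and 13.25), and the 4 MNU cancers without radiation were spread between 8.49 and 11.28. Igfals encodes the acid-labile subunit that carries insulin-like growth factors in blood. It had 9.81, 10.06, 9.54 and 8.70 after radiation plus MNU and 5.88, 5.76, 5.65 and 9.69 after radiation, so 1 radiation cancer was high and 3 were at the floor. The difference of 2.78 ± 0.94 (limma adjusted p = 0.477) was 3.77 without that cancer.

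The imprinted RNA H19 had 13.04, 11.00, 12.68 and 12.18 after radiation plus MNU, against 8.97, 9.50, 9.43 and 12.96 after radiation. As for Igfals, the last of the radiation cancers was the high one, and the difference was 2.01 ± 1.15 (limma adjusted p = 0.673). Its imprinted neighbour Igf2, an insulin-like growth factor, averaged 13.11 ± 0.28 after radiation plus MNU and 11.52 ± 1.29 after radiation (SD, n = 4 each; limma adjusted p = 0.752). Fam111a, a protease linked to DNA replication, differed by 2.62 ± 1.16 without overlap (limma adjusted p = 0.579).

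Among the large differences below 0, Fcgbp, a mucin-like protein that binds the Fc part of IgG, had 7.56, 7.55, 8.27 and 8.49 after radiation plus MNU and 9.63, 10.66, 11.46 and 10.24 after radiation. More than 1 log2 unit lay between the groups (-2.53 ± 0.71; limma adjusted p = 0.401). The smooth muscle actin gene Actg2 differed by -2.06 ± 1.01, the milk and vessel mucin gene Glycam1 by -1.92 ± 1.50, LOC102552398 by -1.88 ± 0.71 and the transcription factor gene Pou3f3 by -1.80 ± 1.16. Actg2, Glycam1 and Pou3f3 overlapped between the groups. LOC102552398 did not, but without the fourth radiation plus MNU array it differed by -1.19. Glycam1 differed by -3.23 without that same array and by -1.13 without the third radiation plus MNU array, and Pou3f3 by -1.07 without the third radiation array.

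The genes of 35 lists, 428 measured of 504, were then described by list. They were chosen with earlier results of these data known, no member passed after adjustment, and the lists are described by counts beside those of all genes and not tested.

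Cell cycle genes had lower values after radiation plus MNU in 23 of 24 cases, against 56% of all genes, with a median difference of -0.47 against -0.03 over all genes. At an unadjusted p under 0.05 there were 6 lower and 0 higher members, where 5.17% and 3.08% of all genes were lower and higher. The list holds the MCM helicase subunits that unwind DNA at replication origins, the cyclins and the mitotic kinases. Mcm2 had 9.35, 9.12, 9.15 and 9.74 after radiation plus MNU, against 10.07, 9.82, 10.75 and 10.22 after radiation. The difference was -0.88 ± 0.29 (limma adjusted p = 0.477). Mcm2 was the only 1 of the 24 members without overlap, where 2.84% of all genes were apart on the lower side. Mcm6 differed by -0.92 ± 0.33, Mcm4 by -0.75 ± 0.30 and cyclin E1 (Ccne1) by -0.80 ± 0.31. Mki67, the proliferation antigen, differed by -0.58, and Aurka was the 1 member above 0 (0.06).

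The array means of the cell cycle list were 9.23, 9.06, 8.89 and 9.40 after radiation plus MNU and 10.02, 9.02, 9.75 and 9.60 after radiation. The second radiation cancer sat among the radiation plus MNU cancers and the other 3 lay above them. Without that cancer the median of the list was -0.68, and without the first radiation cancer -0.32, the widest values over the alternatives. The same list was also lower in MNU than in spontaneous cancers without radiation. Its median was -0.86 and 0 of 24 members were above 0, against 46.6% of all genes. The mean was 9.31 in MNU, 10.08 in spontaneous cancers and 8.71 in normal tissue. No member passed the test of a difference between the irradiated and unirradiated pairs.

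Of the cyclins and their inhibitors, 4 of 16 had lower values at an unadjusted p under 0.05 (5.17% of all genes) and 0 higher (3.08% of all genes). Their median was -0.38, and -0.20 without the first radiation cancer. Ccne1 is counted both here and in the cell cycle list, so these counts are not independent. Cyclin D3 (Ccnd3) lay between 9.96 and 10.17 after radiation plus MNU and between 10.33 and 10.66 after radiation, without overlap (-0.41 ± 0.14; limma adjusted p = 0.477). E2f1, a transcription factor that switches on replication genes, differed by -0.63 ± 0.30. Cyclin E2 (Ccne2) differed by -1.10 ± 0.38 with the brightest probe set and by 0.08 with the other, so its direction is uncertain.

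Cholesterol synthesis had 10 of 10 members lower, against 56% of all genes, with a median of -0.40. Of them 4 had an unadjusted p under 0.05 (5.17% of all genes), each without overlap (2.84% of all genes). The pathway makes isoprene units from acetyl-CoA, joins them to squalene and closes squalene to the sterol ring. Sqle, squalene epoxidase, had 8.98, 8.65, 8.26 and 8.43 after radiation plus MNU, against 10.61, 9.28, 9.67 and 9.68 after radiation (-1.23 ± 0.50; limma adjusted p = 0.553). Idi1, the isoprene isomerase, had 9.14, 8.69, 8.77 and 9.01 after radiation plus MNU and 10.56, 9.55, 10.14 and 9.77 after radiation (-1.11 ± 0.37; limma adjusted p = 0.477). Cyp51, the lanosterol demethylase, had 9.27, 8.91, 9.46 and 9.24 after radiation plus MNU and 10.86, 9.76, 10.18 and 10.05 after radiation (-0.99 ± 0.29; limma adjusted p = 0.409). In all 3 genes the first radiation cancer was highest and the second lowest of its group.

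Fdps, farnesyl diphosphate synthase, differed by -0.79 ± 0.35, and the members with the smallest differences were Lss (-0.17), Dhcr7 (-0.21) and the regulator Srebf2 (-0.22). The list means of the arrays were 9.81, 9.43, 9.59 and 9.54 after radiation plus MNU, against 10.63, 9.81, 10.22 and 10.03 after radiation, and touched at 9.81. Normal tissue averaged 9.61, MNU cancers without radiation 9.70 and spontaneous cancers 9.86. The radiation cancers were therefore the group with the highest mean of these 5, and the median of the list stayed between -0.62 and -0.33 in every alternative.

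To show promoter letters of genes in these lists, the 250 bases before the annotated start were taken from RefSeq (build GRCr8) for Mcm2, Mcm6, Idi1 and Fdps. Capitals mark 8-base E2F words in the MCM genes (TTTCCCGC, TTTGGCGC, TTTGCCGC or TTTCGCGC) and CCAAT boxes in the sterol genes (CCAAT), read on both strands; in both MCM promoters the capitals are matches on opposite strands that overlap in 1 stretch.
Mcm2, chr4:122918095-122918344, minus strand: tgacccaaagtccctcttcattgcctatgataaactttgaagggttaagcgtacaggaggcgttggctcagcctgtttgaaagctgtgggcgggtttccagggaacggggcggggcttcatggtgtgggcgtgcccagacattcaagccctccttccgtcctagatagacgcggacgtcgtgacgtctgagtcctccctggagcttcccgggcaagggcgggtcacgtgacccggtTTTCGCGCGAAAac
Mcm6, chr13:42404353-42404602, minus strand: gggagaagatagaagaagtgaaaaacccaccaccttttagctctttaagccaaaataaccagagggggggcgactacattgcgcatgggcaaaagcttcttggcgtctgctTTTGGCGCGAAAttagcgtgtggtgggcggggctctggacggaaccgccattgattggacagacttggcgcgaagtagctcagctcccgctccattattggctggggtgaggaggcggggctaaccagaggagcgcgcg
Idi1, chr17:66547525-66547774, minus strand: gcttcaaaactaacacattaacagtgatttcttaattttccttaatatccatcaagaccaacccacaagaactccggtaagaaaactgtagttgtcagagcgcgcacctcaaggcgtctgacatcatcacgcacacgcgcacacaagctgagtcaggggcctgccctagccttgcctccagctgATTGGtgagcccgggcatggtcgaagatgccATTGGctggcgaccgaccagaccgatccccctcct
Fdps, chr2:176804817-176805066, minus strand: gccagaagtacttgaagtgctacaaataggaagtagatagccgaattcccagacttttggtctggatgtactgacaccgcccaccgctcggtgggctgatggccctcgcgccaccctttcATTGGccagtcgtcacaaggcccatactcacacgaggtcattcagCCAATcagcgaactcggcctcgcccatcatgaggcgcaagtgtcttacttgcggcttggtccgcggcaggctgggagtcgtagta

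An E2F word stood in 6 of the 20 cell cycle promoters in the table (30.0%), in 0 of 8 cholesterol synthesis promoters, in 1.73% of all 33469 promoters and in 3.23% of the 9735 tested genes with a promoter. A CCAAT box stood in 6 of 8 cholesterol synthesis promoters (75.0%), in 14 of 20 cell cycle promoters (70.0%) and in 34.0% of all promoters. These are matches of letters and say nothing on binding in these cancers.

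Macrophage genes ran the other way: 14 of 14 had higher values after radiation plus MNU, against 44% of all genes, with a median of 0.45, and 5 had an unadjusted p under 0.05 (3.08% of all genes on the higher side). The median was 0.72 without the third radiation plus MNU cancer. Gpnmb, a glycoprotein of lipid-laden macrophages, had 12.27, 12.54, 12.32 and 13.05 after radiation plus MNU and 12.00, 11.64, 11.24 and 11.31 after radiation. It was the only member without overlap, as were 1.47% of all genes on that side (1.00 ± 0.36; limma adjusted p = 0.477). The complement genes C1qb and C1qc differed by 0.84 ± 0.40 (0.56 without the first radiation array) and 0.71 ± 0.34, the lysosomal marker Cd68 by 0.69 and the scavenger receptor Cd163 by 0.90. The list means were 10.57, 11.15, 10.07 and 11.15 after radiation plus MNU, against 9.85, 10.65, 9.74 and 10.47 after radiation, so the first and the third radiation plus MNU cancer lay within the range of the radiation group. Without radiation the direction was the opposite. In MNU against spontaneous cancers 3 of 14 members were higher, against 46.6% of all genes, and the median was -0.29. The mean was 10.05 in MNU cancers, 10.29 in spontaneous cancers and 10.67 in normal tissue. No member passed the test of a difference between the irradiated and unirradiated pairs. The summed intensity of the list ran from 30373 to 47142 after radiation plus MNU and from 19247 to 31058 after radiation. Its part in the differences of Ccl6 and of other genes of myeloid cells was not tested. The neutrophil list had only 4 measured members, all with higher values, against 44% of all genes. Their median was 0.81, but 0.24 without the third radiation cancer and 1.18 without the first. Mmp8, the neutrophil collagenase, differed by 0.79 ± 0.34.

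**Figure D3:**
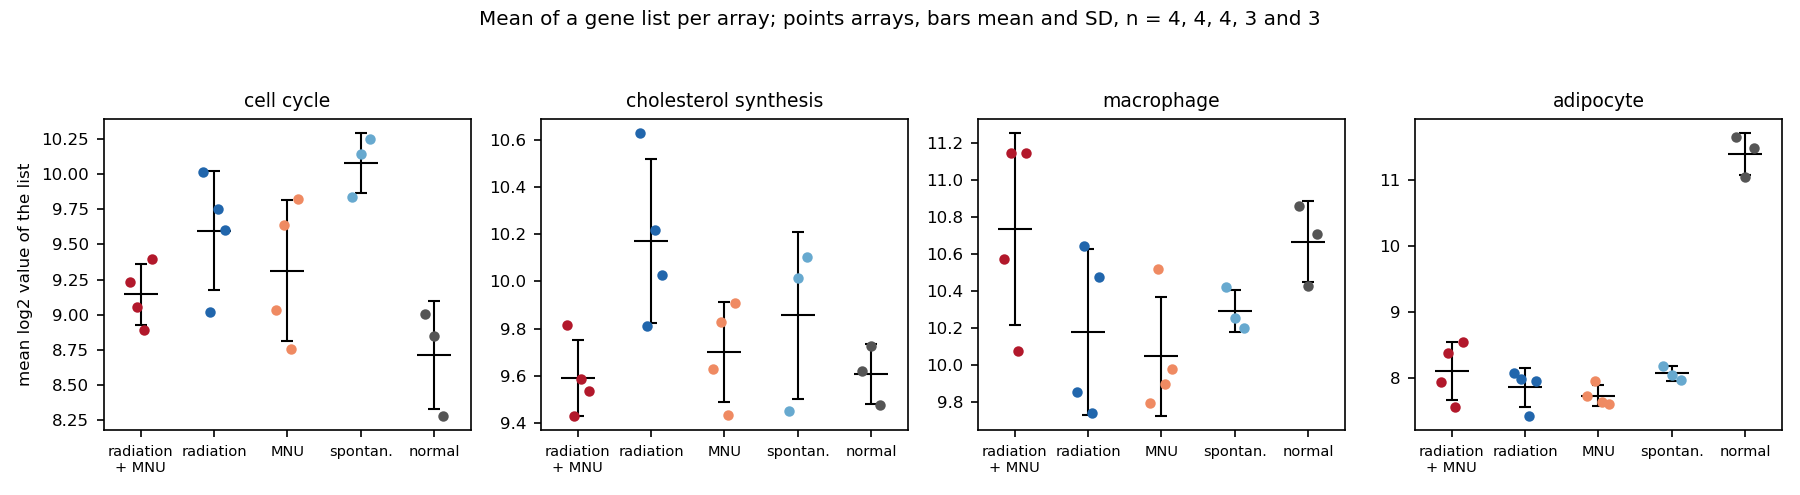
Mean log2 value of a gene list on each array (vertical axes, not starting at 0), for radiation plus MNU, radiation, MNU, spontaneous cancers and normal tissue, with mean and SD (n = 4, 4, 4, 3 and 3). Cell cycle and cholesterol lists lie lower and the macrophage list higher after radiation plus MNU than after radiation on most arrays, and the adipocyte list separates only normal tissue.

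DNA repair bears on both agents. Mgmt, which removes methyl groups from O6-methylguanine, had 8.50, 8.28, 8.26 and 8.23 after radiation plus MNU and 8.56, 7.49, 8.33 and 9.42 after radiation. The radiation cancers lay on both sides of the tight radiation plus MNU group, and the difference was -0.14 ± 0.29 (95% interval -0.72 to 0.45; limma adjusted p = 0.942). It was 0.19 without the fourth radiation array and -0.46 without the second, so its direction is not settled. Of the 14 measured alkylation and mismatch repair genes, 1 had higher and 3 had lower values at an unadjusted p under 0.05, where 3.08% of all genes were higher and 5.17% lower. Their median was -0.12. Polb, the polymerase of base excision repair, had 9.39, 9.88, 9.39 and 9.62 after radiation plus MNU and 9.24, 9.03, 9.04 and 9.14 after radiation, without overlap (0.46 ± 0.13; limma adjusted p = 0.401). Apex1, the endonuclease that acts before it in that pathway, had 10.55, 10.56, 10.76 and 10.71 after radiation plus MNU and 10.98, 10.84, 11.33 and 11.09 after radiation (-0.42 ± 0.14; limma adjusted p = 0.477). The mismatch repair genes Msh6 and Exo1 differed by -0.37 ± 0.16 and -0.61 ± 0.25, and Msh6 by -0.21 without the second radiation plus MNU array. The other kept probe set gave 0.22 for Polb and -0.19 for Apex1.

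Double-strand break repair genes had lower values in 16 of 17 cases, against 56% of all genes, with a median of -0.27. The list means did not overlap: 8.38, 8.39, 8.49 and 8.43 after radiation plus MNU, against 8.62, 8.58, 8.74 and 8.74 after radiation. With 35 lists described, some may lie apart in this way by chance, and the separation was not tested. The differences of single genes were small. An unadjusted p under 0.05 was found for 2 members (5.17% of all genes on the lower side), the checkpoint kinase Chek1 (-0.74 ± 0.32) and the break sensor Nbn (-0.34 ± 0.15). Prkdc (-0.24), Xrcc5 (-0.25) and Lig4 (-0.37), which act in end joining, were the 3 members without overlap (2.84% of all genes on the lower side). In MNU against spontaneous cancers 5 of 17 members were higher, against 46.6% of all genes, and the median was -0.19. Chek1 is also a gene of the replicating cell, and the cell cycle list was lower on the same arrays; its part in the result was not tested. Of the p53 targets, Gadd45a differed by 0.66 ± 0.25, Zmat3 by -0.31 ± 0.14 and Phlda3 by -0.48 ± 0.21, and the median over 14 targets was -0.06. Phlda3 differed by -0.27 without the fourth radiation array. The median of the targets changed sign with 1 array left out, being 0.08 without the first radiation cancer and -0.26 without the second.

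The genes downstream of RAS, a readout of the pathway that a mutated H-ras would drive, had lower values in 13 of 16 cases, against 56% of all genes, with a median of -0.23. That median was -0.06 without the second radiation plus MNU cancer. Spry4, a feedback inhibitor of the pathway, differed by -0.34 ± 0.14, and Ier3, an immediate early gene, by 0.92 ± 0.31. Etv1, an ETS transcription factor, differed by -0.76 ± 0.27, but 1 of its 4 probe sets gave 0.11.

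In lipid metabolism apart from sterols, Thrsp, a regulator of fatty acid synthesis, had 13.09, 11.37, 12.72 and 13.18 after radiation plus MNU and 12.13, 11.03, 10.91 and 10.88 after radiation (1.35 ± 0.50; limma adjusted p = 0.484). Srebf1, the transcription factor of that pathway, differed by 0.56 ± 0.26 and the elongase Elovl5 by 0.42 ± 0.19, while the elongase Elovl6 was lower without overlap (-0.73 ± 0.28). Of the 14 fatty acid synthesis genes 11 had higher values, against 44% of all genes, with a median of 0.14. The sign of this median rests on 1 array: it was -0.06 without the fourth radiation plus MNU cancer, and 0.42 without the first radiation cancer. Elovl5 differed by 0.21 without that same radiation plus MNU cancer. Among adipocyte genes, Fabp4, the fatty acid carrier of fat cells, was at 7.30 and 6.95 in 2 radiation plus MNU cancers and at 9.67 or above in the second and the fourth, against 7.52, 7.10, 6.16 and 8.00 after radiation and 13.55 to 14.03 in normal tissue. Its difference of 1.29 ± 0.52, the largest of the list, was 0.78 without the second radiation plus MNU array. Of the 15 adipocyte genes 8 had higher and 7 lower values, where 44% of all genes were higher. The list median was 0.13, and -0.02 without the third radiation array. The summed intensity of the 15 adipocyte genes ran from 5667 to 11895 after radiation plus MNU and from 4614 to 8442 after radiation, and 5 of them were under the filter intensity on all 8 arrays. Pdk4, Pnpla2 and Thrsp are also strongly expressed in fat, and the part of residual fat cells in their differences was not tested.

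Matrix proteases and their inhibitors had higher values in 12 of 14 cases, against 44% of all genes. Their median was 0.25, and 0.43 without the third radiation plus MNU cancer. Mmp11, a protease made by tumour stroma, had 11.20, 11.30, 9.85 and 11.48 after radiation plus MNU and 7.75, 10.46, 9.13 and 9.55 after radiation, overlapping in 1 array of each group (1.74 ± 0.63; limma adjusted p = 0.477). Plat, tissue plasminogen activator, differed by 0.72 ± 0.29, and by 0.39 without the second radiation array. Among the differentiation genes, Muc1, a mucin of the luminal surface, was higher without overlap (0.79 ± 0.32) and Gata3, the luminal transcription factor, differed by 0.42 ± 0.20, while Krt17, a basal keratin, differed by -0.57 ± 0.25 (-0.35 without the fourth radiation array). The luminal list as a whole had a median of -0.04, which ran from -0.05 to 0.05 with 1 array left out. That of the basal and myoepithelial list was -0.17, and ran from -0.39 without the second radiation array to -0.02 without the third radiation plus MNU array. Wnt4, a signal induced by progesterone, differed by 0.92 ± 0.43, and by 0.56 without the first radiation array. The ERBB ligand Nrg1 differed by -0.78 ± 0.36, but its other 3 probe sets gave -0.15, -0.42 and -0.07, and without the fourth radiation array it differed by -0.46. Bmp4, a bone morphogenetic protein, was higher without overlap (0.92 ± 0.41), as was the sulfotransferase Sult1a1 (0.75 ± 0.23). The members named in the next sentences overlapped between the groups. The stromal receptor Pdgfrb differed by 0.57 ± 0.27, the protease Ctss of antigen-presenting cells by 0.68 ± 0.31 and the Fc receptor Fcgr3a by 0.40 ± 0.19. The fibroblast and matrix list, which holds Pdgfrb, had 11 of 18 members higher and a median of 0.04. The MHC class II list, which holds Ctss, had 3 of 9 higher and a median of -0.24, where 44% of all genes were higher. Both medians changed sign with 1 array left out. Below 0 were hexokinase 1 (Hk1, -0.35 ± 0.16), the receptor Notch1 (-0.41 ± 0.20), the regulator of MHC class II genes Ciita (-0.46 ± 0.22), the muscle myosin Myh1 (-0.47 ± 0.14) and the B cell chemokine Cxcl13 (-1.42 ± 0.65). Myh1 gave 0.24 with another of its probe sets. The printed Myh1 probe set averaged 12.14 after radiation plus MNU and 12.61 after radiation. The skeletal muscle list averaged only 7.79 and 7.71, so whether this probe set reads muscle myosin here is open and was not tested. That list had 7 of 12 members higher, against 44% of all genes, and a median of 0.08. Several of these moved by over 1.5 times with 1 array left out. Without the second radiation plus MNU array Pdgfrb differed by 0.36, and without the fourth Fcgr3a differed by 0.26 and Notch1 by -0.20. Hk1 differed by -0.57 without the second radiation array. Ciita ran from -0.75 without the second radiation plus MNU array to -0.28 without the third. Cxcl13 ran from -2.18 without the third radiation array to -0.77 without the second.

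**Figure D4:**
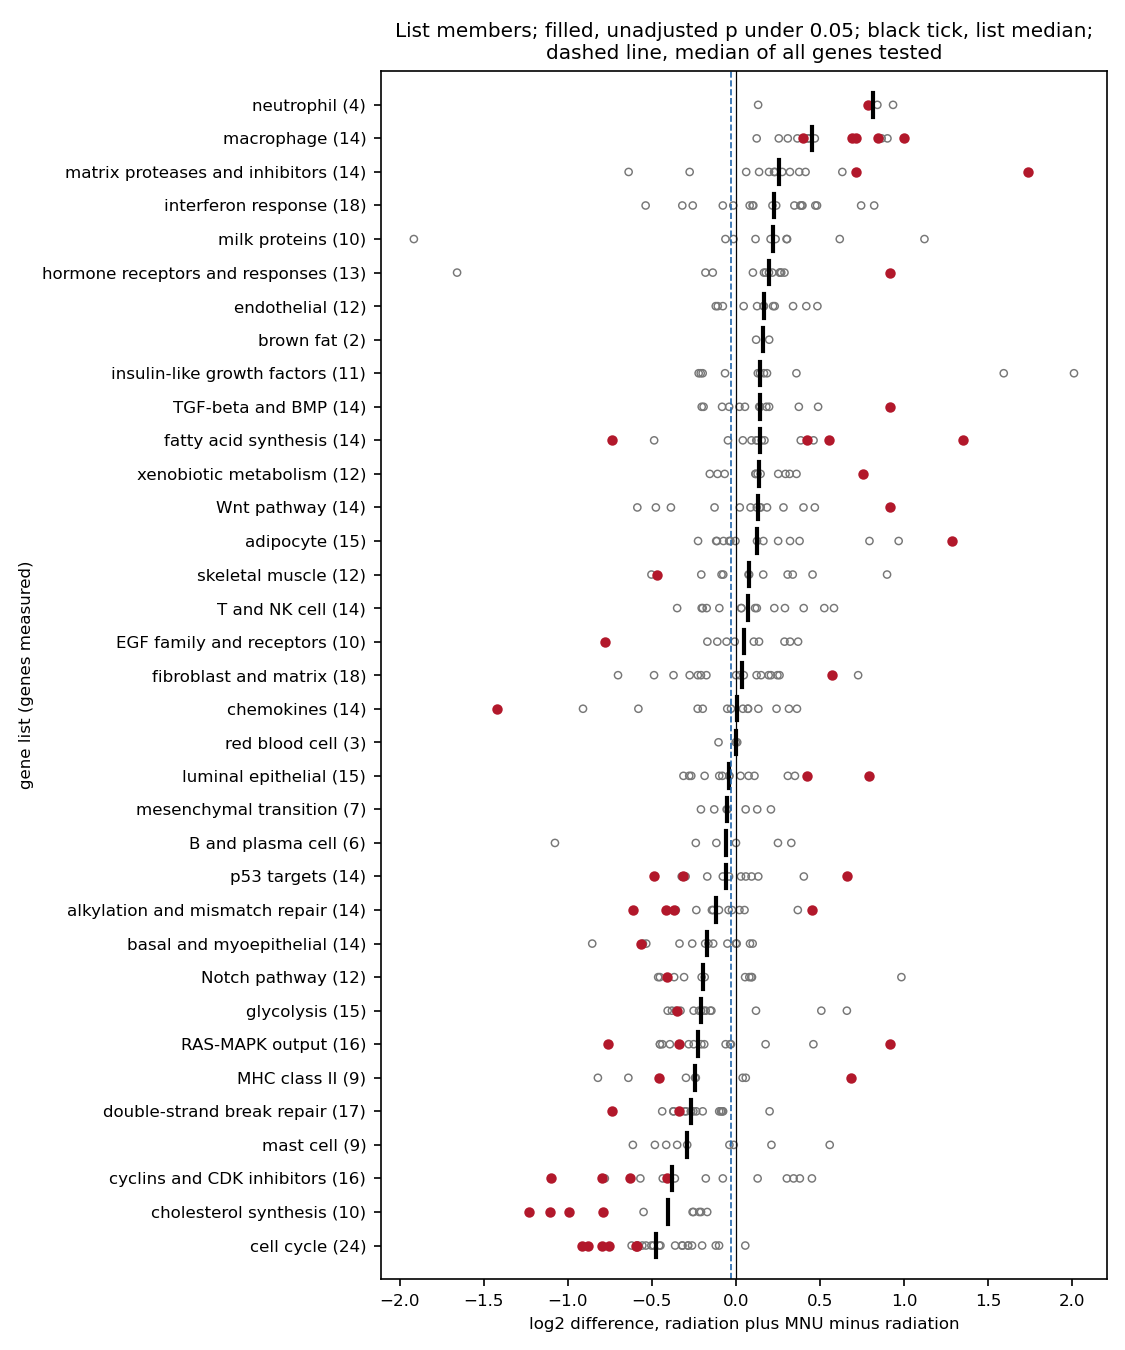
Log2 difference between radiation plus MNU and radiation cancers (horizontal axis) for the measured members of the lists (rows, number of genes in brackets), filled where the unadjusted limma p was under 0.05, with each list's median as a black tick and the median of all genes (-0.03) dashed. The medians run from -0.47 for the cell cycle to 0.81 for 4 neutrophil genes, which is 0.24 without the third radiation cancer.

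The last question was whether the difference that goes with MNU had the same size without radiation. The difference between MNU and spontaneous cancers was subtracted from the difference between radiation plus MNU and radiation cancers, 2 differences that share no array. In this test 3 of 11773 genes passed (0.0255%), namely Dach1, Plg and Vsnl1, all with a positive value. At an unadjusted p under 0.05 there were 869 genes (7.38%), 392 with a positive value (3.33%) and 477 with a negative one (4.05%).

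Plg encodes plasminogen, the precursor of the protease plasmin. Its values were 8.45, 9.66, 8.22 and 9.21 after radiation plus MNU and 7.48, 7.52, 6.96 and 7.07 after radiation, the 2 groups being apart. Without radiation the order was the opposite, with 7.20, 6.50, 8.32 and 7.48 after MNU and 10.02, 10.40 and 9.75 in spontaneous cancers. The MNU difference was 1.63 ± 0.51 with radiation (limma adjusted p = 0.43) and -2.68 ± 0.55 without it (limma adjusted p = 0.0685), and these differed by 4.31 ± 0.75 (limma adjusted p = 0.0182). Normal tissue had 6.10 to 7.05, and of these groups only the radiation plus MNU and the spontaneous cancers lay wholly above it.

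Dach1, a transcription cofactor of the Dachshund family, had 10.72, 11.22, 9.77 and 9.31 after radiation plus MNU and 9.31, 8.95, 8.73 and 9.80 after radiation. In unirradiated rats it had 9.49, 9.15, 9.04 and 9.16 after MNU, all below the 10.89, 10.81 and 10.53 of the spontaneous cancers. The MNU difference was 1.06 ± 0.30 with radiation (limma adjusted p = 0.401) and -1.54 ± 0.33 without it (limma adjusted p = 0.091). The 2 differed by 2.59 ± 0.45 (limma adjusted p = 0.0182). Vsnl1, a neuronal calcium sensor, had 7.52, 8.70, 6.70 and 7.72 after radiation plus MNU, against 6.86, 6.81, 6.57 and 7.02 after radiation, where every array was under the filter intensity. It had 7.62, 7.43, 7.80 and 7.89 after MNU and 9.15, 11.42 and 8.82 in spontaneous cancers. Its MNU difference was 0.84 ± 0.38 with radiation and -2.11 ± 0.41 without it (limma adjusted p = 0.593 and 0.0492), and these differed by 2.95 ± 0.56 (limma adjusted p = 0.0488). The difference with radiation was 0.50 without the second radiation plus MNU array and 0.41 with the other Vsnl1 probe set.

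These 3 calls rest on few arrays. None of the 3 passed when the first radiation plus MNU, the second or the third radiation array or the second MNU array was left out. Over 27 alternatives, Dach1 stayed between 2.27 and 2.91 and passed in 20, Plg stayed between 3.40 and 4.75 and passed in 18, and Vsnl1 stayed between 2.14 and 3.44 and passed in 8. The fourth MNU array had a hexokinase 3'/5' ratio of 12.3, far from the other 3 MNU arrays (2.27 to 2.48). Without it Dach1 and Plg passed (limma adjusted p = 0.0451 for both) and Vsnl1 did not (limma adjusted p = 0.0803). With the hexokinase ratio as a covariate, Dach1 and Vsnl1 passed (limma adjusted p = 0.0098 for both). Plg did not pass in that fit (limma adjusted p = 0.0585). Fgf3 had the largest value among the genes named here, 6.17 ± 1.29, and did not pass (limma adjusted p = 0.0893).

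**Figure D5:**
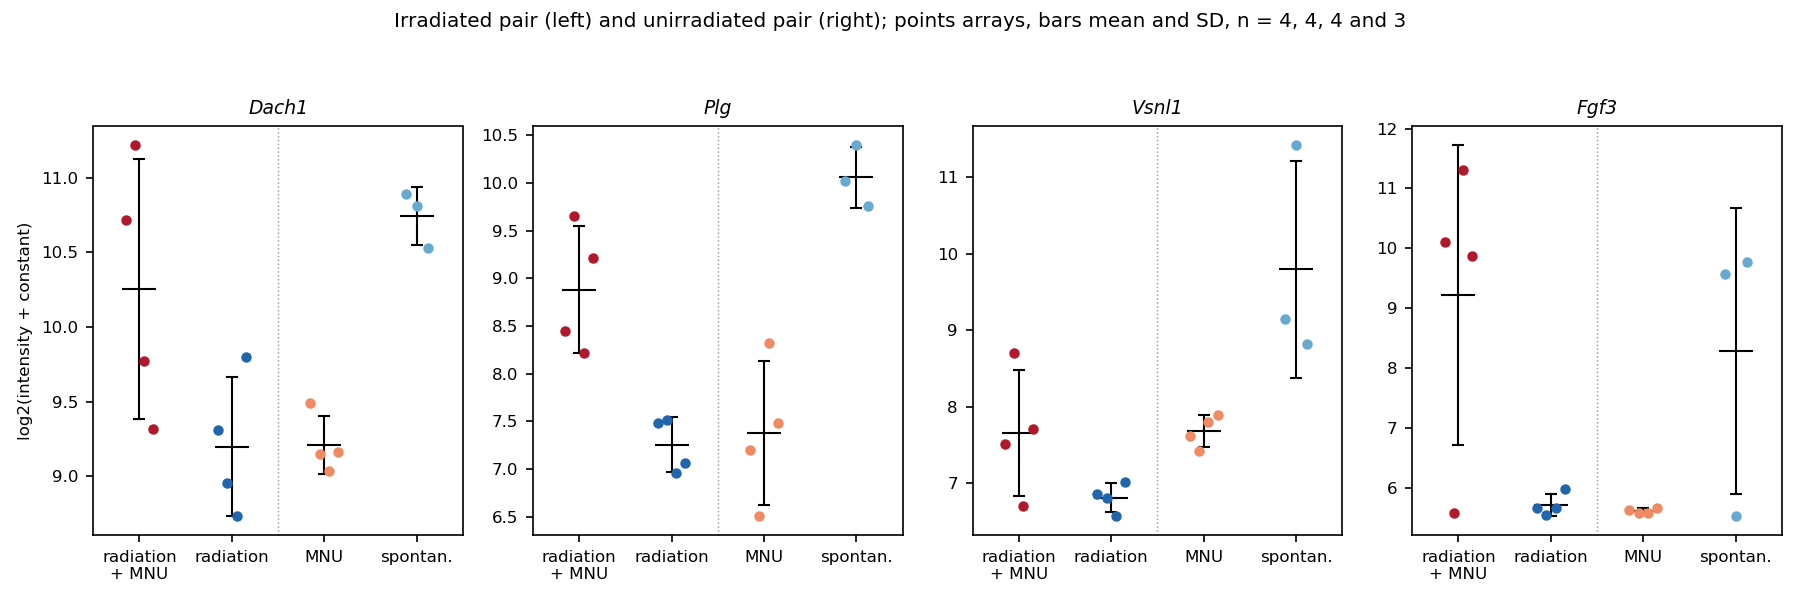
Array values, log2(intensity + 42.8), of Dach1, Plg, Vsnl1 and Fgf3 in the irradiated pair (left of the dotted line) and the unirradiated pair (right of it), with mean and SD (n = 4, 4, 4 and 3) and axes that do not start at 0. In each panel the radiation plus MNU mean lies above the radiation mean, whereas the MNU mean lies below the spontaneous mean.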

How the data were processed

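Gene expression was read on 36 single-colour oligonucleotide arrays (31099 probe sets), hybridised with biotin-labelled cRNA made from 8 µg of total RNA, per the labels' protocols. The authors deposited 1 linear intensity per probe set and array. The summary of probes is not stated in the sources used here. The deposited intensities have a mean, after leaving out 2% of probe sets at each end, of about 500.1 on every array, so each array had been scaled as a whole. Groups came from the labels alone, and no batch or date is given there.

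Intensities were taken as log2(intensity + 42.8). A probe set was kept if it exceeded 126 (the 40th percentile) on at least 3 arrays, and the brightest probe set stood for each gene, leaving 11773 genes. Array medians differed by at most 0.378 on the log2 scale, and arrays were not normalized further (a spread above 0.5 would have called for it). Symbols came from the platform annotation: 20832 probe sets carried 1 symbol, 436 several and 9831 none, and RefSeq (GRCr8) listed the gene of 20764. limma 3.58.1 in R 4.3.3 fitted 1 mean per group to all 36 arrays, and p-values were adjusted over all genes by the Benjamini-Hochberg method, with a threshold of 0.05. The precision rests on the number of arrays. Errors of differences are standard errors of the fit; group values are means with SD.

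The members and gene lists were chosen with earlier results of these data known. Genes were named by rule: the 15 with the smallest p in each direction, those passing the interaction test, up to 4 members per list with the smallest unadjusted p, and Mgmt; of the list members, those with p under 0.05 are printed by rule. The largest differences, and some list members given as examples, were added after their values were seen. The test was tried on simulated data with known changes. Same-numbered arrays of the groups deviated together in some pairs only (correlations of 0.0926, 0.321, 0.129 and -0.0235), so the numbers were not treated as pairs. The highest correlation between any arrays was 0.984, and none were identical.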

Additional observations from a re-analysis of the deposited data

Results flagged for a closer look

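In the groups of 4 arrays, 264 sets of values were searched for a single array standing apart from the others by Dixon's criterion, and 13 were found (4.92%), where chance gives about 1 in 20. The radiation cancers supplied 10 of the 13. The first of them was high for Hsdl2 (10.74, the others 10.29 to 10.35) and Thrsp (12.13, the others 10.88 to 11.03) and low for Nbn (9.48, the others 9.89 to 9.93). The second was low for Exo1 (7.04, the others 7.95 to 8.13) and Hk1 (10.83, the others 11.65 to 11.79) and high for LOC102552398 (12.07, the others 10.38 to 10.51). It was also low in the mean of the basal and myoepithelial list (10.53, the others 11.11 to 11.22) and of the alkylation and mismatch repair list (9.16, the others 9.44 to 9.48). The fourth radiation cancer was high for Igfals (9.69, the others 5.65 to 5.88) and H19 (12.96, the others 8.97 to 9.50).

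Among the radiation plus MNU cancers, the fourth was high for Fcgr3a (9.88, the others 9.29 to 9.35) and in the mean of the skeletal muscle list (8.85, the others 7.34 to 7.56). The second had a mast cell list mean of 11.26, the others 7.01 to 7.61, and without it the median difference of the mast cell list moved to -1.49, against -0.29 with all arrays. Without the second radiation cancer that median was 0.37, so the direction of the mast cell list is not settled.

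The MNU difference with radiation minus that without radiation passed the test for 3 genes, Plg (4.31), Vsnl1 (2.95) and Dach1 (2.59). For each of them the values after radiation plus MNU averaged above those after radiation, and the values after MNU averaged below those of spontaneous cancers.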

How the results depend on the processing

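No gene passed between radiation plus MNU and radiation cancers under quantile normalization, median centring, a smaller or larger constant, no filter or a stricter one, the mean of a gene's probe sets, the 8 arrays alone, nonmutated cancers alone, trend and robust eBayes, array weights, the hexokinase ratio as a covariate, or all kept probe sets. Leaving out 1 array gave 0 to 1 genes: Fgf3 without radiation plus MNU array 2 and Ptges without radiation array 1. The smallest adjusted p in the fits with all arrays of the comparison was 0.0706 (nonmutated cancers alone). The genes with an unadjusted p under 0.05 numbered 769 to 1262 with 1 array left out, and 1564 of 21976 with all kept probe sets (smallest adjusted p 0.414; added after seeing the data). Genes without overlap numbered 756 to 1291 with 1 of the 8 arrays left out, where fewer arrays make overlap rarer. The share of higher genes among those with p under 0.05 was 37.3%, and 40.4% after median centring. The difference between the pairs was passed by 1 gene with a constant of 16 (Dach1), 1 with nonmutated cancers alone (Plg), 17 with array weights, 7 with all kept probe sets (3 of them without a single symbol), and 0 to 6 with 1 array left out; the cause was not tested. This difference needs the other groups and has no value from the 8 arrays alone. With the replicate block, 0 genes passed in the comparison (979 with p under 0.05) and 2 in the difference between the pairs (Dach1 and Plg; Vsnl1 had an adjusted p of 0.0553). Mgmt lay between -0.46 and 0.19 with 1 array left out, above 0 only without radiation array 4. Signs of the cell cycle, cholesterol, break repair and macrophage medians held in all alternatives run. Values near the floor (Fgf3, Npw, Mamdc2, Igfals, Letm2) scale with the constant. The difference between the pairs does so too for Plg and Vsnl1. Plg had 4.75 with a constant of 16 (limma adjusted p = 0.0574) and 3.40 with the largest (limma adjusted p = 0.00786). Vsnl1 had 3.26 (limma adjusted p = 0.0752) and 2.34 (limma adjusted p = 0.0427).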

Other observations

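Among the lists plotted but not described above, the interferon response list had higher values in 13 of 18 members after radiation plus MNU. The share over all genes was 44%, and the list median was 0.23. In MNU against spontaneous cancers 16 of 18 members had lower values and 2 higher, where 46.6% of all genes were higher (median -0.51). The fourth radiation plus MNU cancer had the highest list mean of its group (10.56, the others 9.46 to 9.86). Without it the median of 0.23 became 0.00.

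Tnfsf11, the RANKL cytokine through which progesterone acts on neighbouring mammary cells, averaged 6.60 ± 0.69 after radiation plus MNU and 8.26 ± 1.90 after radiation (SD, n = 4 each; limma adjusted p = 0.675). The radiation cancers were the scattered group. Stc1, which encodes the secreted glycoprotein stanniocalcin, was close in both irradiated groups (9.22 ± 0.34 after radiation plus MNU and 9.15 ± 0.30 after radiation), and lower after MNU than in spontaneous cancers by 1.74 (SE 0.26; limma adjusted p = 0.00373). The difference between these 2 differences was 1.82 ± 0.36 (limma adjusted p = 0.0665) with its brightest probe set. With another of its probe sets it was 2.36 ± 0.43 (limma adjusted p = 0.0266, over all kept probe sets). Stc1 also passed in 5 of 27 alternatives of the test by gene, under median centring, with the mean of a gene's probe sets, and without radiation plus MNU array 4, spontaneous array 2 or spontaneous array 3. Both genes were picked after their values were seen.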
